A study of Mus musculus with 12 samples.

Results

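Th2 and Th17 cells are helper T cell types that are told apart by the cytokines they secrete, and 8 of the 770 genes on the nCounter mouse PanCancer Immune Profiling Panel encode those effector cytokines. Il4, Il5, Il9 and Il13 belong to the type 2 group, and Il17a, Il17f, Il21 and Il22 to the type 17 group. The genes were chosen by symbol, and all 8 symbols were found in the deposited table. In type 2 immunity, Il4 drives B cells towards IgE, Il5 matures eosinophils, Il9 supports mast cells, and Il13 acts on epithelia and macrophages. In type 17 immunity, Il17a and Il17f make epithelial and stromal cells release chemokines that attract neutrophils, Il22 acts on epithelia, and Il21 acts on B cells and T cells and is also made by follicular helper T cells. A20, the tumor studied here, is a B-cell lymphoma, and B cells are among the known targets of Il4 and Il21.

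RNA was measured in 12 subcutaneous tumors of female Balb/c mice, 7 to 8 weeks old on arrival per the study's methods, that had received 5000000 A20 cells, a lymphoma line from the same strain. About 7 days after implantation, 4 tumors were injected with PBS, 4 with the stable emulsion alone (SE), and 4 with GLA-SE, which is 10 µg of the synthetic TLR4 agonist glucopyranosyl lipid A in 50 µl of 2% SE and is called G100 in the study. All groups carried the same tumor and received 3 injections, given every other day, and tumors were taken 2 h after the last one. The labels number the mice within each group, so each tumor was treated as 1 independent replicate. The tissue is bulk tumor at 1 early time point, and fewer cells of a type and less RNA per cell cannot be told apart in it.

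The total count per tumor was 812522 to 1086462 with PBS, 810260 to 1268512 with SE and 1186487 to 1612415 with GLA-SE. The 20 reference genes, whose counts set the scaling, had a geometric mean of 1869 to 2357 with PBS and 1716 to 1883 with GLA-SE. In SE it ranged from 959.2 in replicate 4 to 2587 in replicate 1. SE replicate 4 stood apart also in its B cell markers (Cd79a, Cd79b and Ms4a1 among them), which summed to 5622 counts against 11657 to 26049 in the other SE tumors. All 5 B cell markers and all 10 T cell markers lay above 20 counts in each of the 12 tumors. The lowest count was 41 among the B cell markers (Cd79a, SE replicate 4). Among the T cell markers it was 28 (Cd28, PBS replicate 2).

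The first question was whether the 8 cytokines exceeded 20 counts, which is the threshold below which the study's methods discard genes. A count of 20 has an exact Poisson 95% interval of 12.2 to 30.9, and a count of 10 one of 4.80 to 18.4. These intervals cover counting error only. Of 96 values (8 genes in 12 tumors), 11 lay above 20, or 11.5%. In the PBS tumors 2 of 32 values did, in the SE tumors 2 of 32, and in the GLA-SE tumors 7 of 32, where total counts were also higher. After scaling to the reference genes the SE tumors held 7 such values, the PBS tumors 1 and the GLA-SE tumors 9. For 10 of the 11 deposited values above 20 the Poisson interval reached down to 20 or less. The exception was Il4 in GLA-SE replicate 2, at 39 counts with an interval of 27.7 to 53.3.

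By gene, 5 of the 8 cytokines exceeded 20 in at least 1 tumor (Il4, Il9, Il13, Il21 and Il22), whereas 95.7% of the 750 panel genes that are not reference genes did so. In PBS tumors 2 of 8 exceeded 20 somewhere (panel 91.1%), in SE tumors 2 of 8 (panel 92%), and in GLA-SE tumors 5 of 8 (panel 94.4%). None of the 8 had a median above 20 over the 12 tumors, against 87.1% of the panel, and none was above 20 in all 4 tumors of any group. Each probe has its own efficiency, so a count places a gene against the low-count range and does not give its transcript number relative to another gene. On that count scale the medians were 9.5 for Il5, 10 for Il9, 10 for Il17a, 12 for Il17f, 14 for Il4, 16 for Il22, 16.5 for Il21 and 18 for Il13. Between 1.47% (below Il5) and 10.4% (below Il13) of the 750 genes had a lower median.

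**Figure D1:**
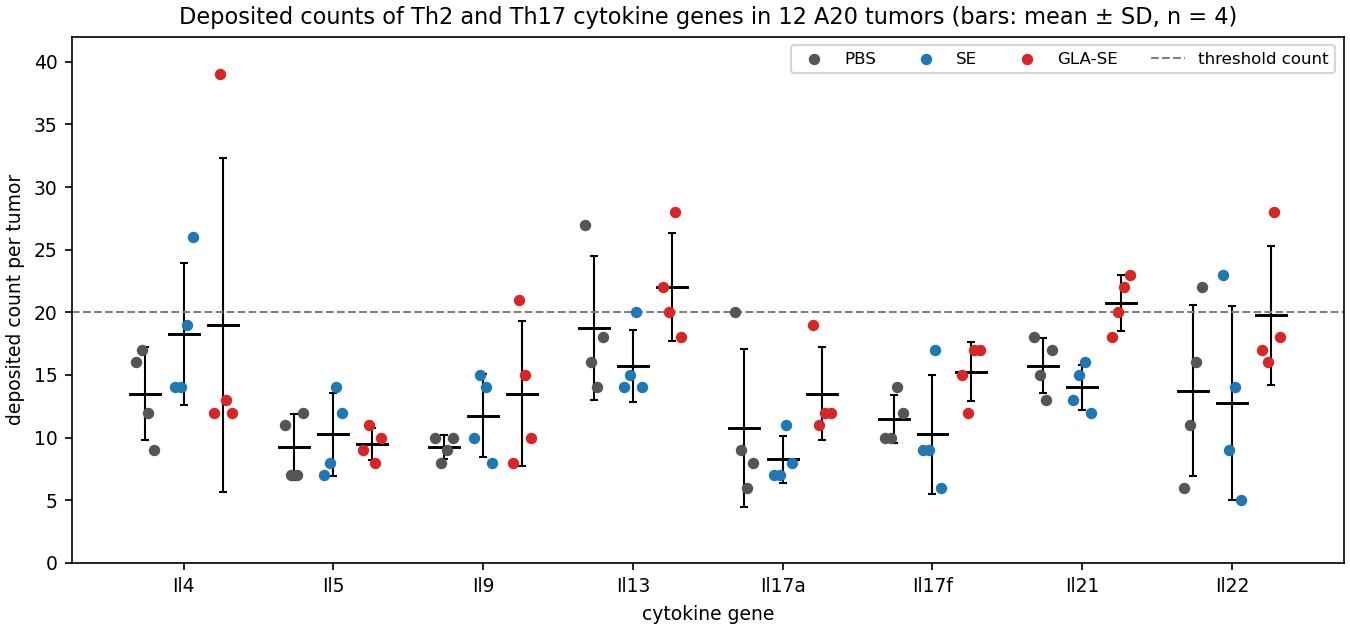
Deposited probe count per tumor (y axis, linear from 0) for each cytokine gene (x axis) in PBS, SE and GLA-SE tumors. Points are single tumors, black bars are mean ± SD (n = 4 per group), and the dashed line is the threshold count of 20. Most points lie under the line, and the highest is Il4 in GLA-SE replicate 2 at 39.

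To see what counts the panel gives for genes with little reason to be active in a lymphoma, 17 genes known mainly from liver, pancreas, lung, skin or the nervous system were set beside the cytokines. Their medians ran from 7 to 77 with a middle value of 15.5, and 4 of 17 were above 20. The cytokine medians ran from 9.5 to 18 with a middle value of 13, and 3 of 8 (Il13, Il21 and Il22) were above 15.5. The list is not a pure blank, since C8a, a complement gene of the liver, held 29 to 182 counts and was above 20 in 12 of 12 tumors. Whether the transcripts of these 17 genes were present was not tested. Within single tumors, 0 to 3 of the 8 cytokines exceeded the median of the 17 genes in the PBS group, 1 to 4 in the SE group and 3 to 5 in the GLA-SE group. The 8 cytokines together summed to 91 to 118 counts per tumor with PBS, 91 to 125 with SE and 120 to 150 with GLA-SE. As CPM of the tumor's total count these sums were 83.8 to 132, 76.5 to 133 and 88.7 to 118, and the 3 groups overlapped on this scale.

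**Figure D2:**
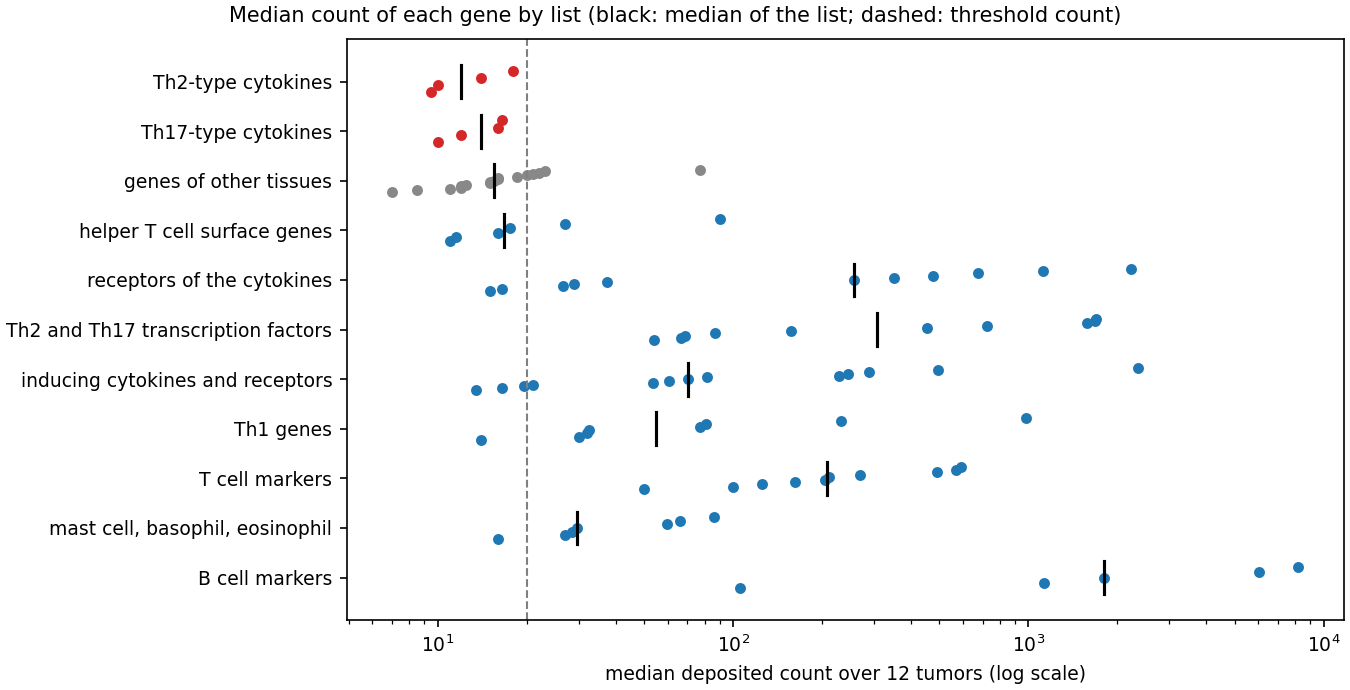
Median deposited count over the 12 tumors (x axis, log scale) of each gene, by list (rows). Points are genes, black bars the median of each list, and the dashed line the threshold count of 20. The cytokines (red, 9.5 to 18) lie among the genes of other tissues (gray, 7 to 77), and the transcription factors and T cell markers lie entirely to the right of the line.

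Among the type 2 cytokines, Il4 had 16, 17, 12 and 9 counts in the PBS tumors (replicates 1 to 4), 14, 14, 19 and 26 in the SE tumors, and 12, 39, 13 and 12 in the GLA-SE tumors. The GLA-SE mean of 19 ± 13.3 (SD, n = 4) rested on replicate 2, and the other 3 GLA-SE tumors lay within the range of PBS, whose mean was 13.5 ± 3.70 (SD, n = 4). The SE mean was 18.3 ± 5.68 (SD, n = 4), and all 3 groups overlapped. In the genome Il4 lies next to Il13, with Rad50 between that pair and Il5, and the 3 genes form the shared type 2 cytokine locus.

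Il5 had 11, 7, 7 and 12 counts with PBS, 7, 8, 14 and 12 with SE, and 9, 11, 8 and 10 with GLA-SE. No tumor of any group reached 20, and the means of 9.25 ± 2.63, 10.3 ± 3.30 and 9.5 ± 1.29 (SD, n = 4 each) lay within each other's spread.

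Il13 had 27, 16, 14 and 18 counts with PBS, 14, 15, 20 and 14 with SE, and 22, 20, 28 and 18 with GLA-SE. It had the highest median of the 4 type 2 cytokines, and its GLA-SE median of 21 was above the threshold. PBS replicate 1, at 27, exceeded 3 of the 4 GLA-SE tumors, so the groups overlapped. The group means were 18.8 ± 5.74 with PBS, 15.8 ± 2.87 with SE and 22 ± 4.32 with GLA-SE (SD, n = 4 each).

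Il9 had 10, 8, 9 and 10 counts with PBS, 10, 15, 14 and 8 with SE, and 8, 21, 15 and 10 with GLA-SE. The PBS tumors were nearly alike (mean 9.25 ± 0.957, SD, n = 4). The 21 counts of GLA-SE replicate 2, the tumor that was also highest for Il4, were the only Il9 value above 20, and both injected groups overlapped PBS.

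Among the type 17 cytokines, Il17a had 20, 9, 6 and 8 counts with PBS, 7, 7, 11 and 8 with SE, and 19, 11, 12 and 12 with GLA-SE. One PBS tumor reached 20 exactly and none exceeded it. The highest PBS tumor lay above every GLA-SE tumor, while the other 3 PBS tumors lay below all of them. The means were 10.8 ± 6.29, 8.25 ± 1.89 and 13.5 ± 3.70 (SD, n = 4 each).

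Il17f, the neighbour of Il17a in the genome, had 10, 10, 14 and 12 counts with PBS, 9, 9, 17 and 6 with SE, and 15, 12, 17 and 17 with GLA-SE. No tumor reached 20. The GLA-SE tumors lay in the upper part of the range, but PBS replicate 3, at 14, exceeded GLA-SE replicate 2, at 12. The means were 11.5 ± 1.92 with PBS, 10.3 ± 4.72 with SE and 15.3 ± 2.36 with GLA-SE (SD, n = 4 each).

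Il21 had 18, 15, 13 and 17 counts with PBS, 13, 15, 16 and 12 with SE, and 18, 20, 22 and 23 with GLA-SE. It was the most even of the 8 genes (variance within groups over mean 0.261, against 4.41 for Il4), and its GLA-SE median of 21 was above the threshold although 2 of the 4 tumors were not. The lowest GLA-SE tumor tied with the highest PBS tumor at 18, and all GLA-SE counts lay above all SE counts. The means were 15.8 ± 2.22 with PBS, 14 ± 1.83 with SE and 20.8 ± 2.22 with GLA-SE (SD, n = 4 each).

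Il22 had 6, 11, 16 and 22 counts with PBS, 23, 9, 14 and 5 with SE, and 17, 16, 28 and 18 with GLA-SE. It varied most within the PBS and SE groups, where single tumors ran from 5 to 23, and the GLA-SE tumors, at 16 and above, overlapped both. The means were 13.8 ± 6.85, 12.8 ± 7.76 and 19.8 ± 5.56 (SD, n = 4 each). Il22 has a neighbouring copy, Iltifb, and whether the probe also counts that copy was not tested.

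The second question was whether the groups differed. For GLA-SE against PBS, counts were scaled to 15 reference genes and tested with edgeR's quasi-likelihood test, with Benjamini-Hochberg adjustment over the 750 genes. Of the 8 cytokines, 2 passed (Il17f and Il21), both higher with GLA-SE, while 68.5% of the panel passed (510 genes higher and 4 lower). Il17f had 16.8 ± 2.95 normalized counts with GLA-SE and 10.4 ± 0.461 with PBS (SD, n = 4 each), a log2 fold change of 0.69 ± 0.22 (standard error) with an edgeR adjusted p of 0.0236. Il21 had 22.9 ± 3.25 and 14.5 ± 3.31 normalized counts (SD, n = 4 each), a log2 fold change of 0.66 ± 0.22 (standard error) with an edgeR adjusted p of 0.0265. These are rises of 1.61-fold (95% interval 1.13 to 2.29) for Il17f and 1.58-fold (1.11 to 2.25) for Il21. After scaling, both genes had no overlap between the 4 GLA-SE and the 4 PBS tumors, as had 64.5% of the panel, and the two-sided exact permutation test gave 0.0286 for each, the smallest p that 70 assignments allow.

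Both calls lay in a range where single counts and the scaling mattered. The deposited counts of Il17f and Il21 overlapped between the groups, and the scaling factors of the GLA-SE tumors (0.856 to 0.968) were all below those of the PBS tumors (0.983 to 1.27). Neither gene passed without GLA-SE replicate 3 (edgeR adjusted p 0.073 for Il17f and 0.0595 for Il21), and without PBS replicate 1 the number of cytokines that passed was 4, with Il13 and Il17a added. Of the 750 genes, 476 passed as higher without GLA-SE replicate 3 and 493 without PBS replicate 1. Neither passed without rescaling, with TMM scaling, with all 12 tumors in 1 fit or with DESeq2, and with a replicate block Il17f passed and Il21 did not. Neither passed with counts under 20 set to 20, but every Il17f count then became 20. That setting could not test Il17f, whose log2 fold change of 0.27 there came from the scaling alone. With the median of the panel as the scale, all 8 log2 fold changes turned negative, and Il5, Il13 and Il21 passed as lower with GLA-SE. They were part of 306 of the 750 genes that passed as lower. The panel's own median moved from 0.89 to -0.39 on the log2 scale under that setting.

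The other 6 cytokines did not pass for GLA-SE against PBS. For Il22 the log2 fold change was 0.83 ± 0.35 (standard error, edgeR adjusted p 0.0597) and for Il9 0.82 ± 0.34 (standard error, edgeR adjusted p 0.0556). The values were 0.75 ± 0.48 for Il4, 0.56 ± 0.43 for Il17a, 0.49 ± 0.30 for Il13 and 0.31 ± 0.30 for Il5 (standard errors), with edgeR adjusted p from 0.181 to 0.385. Their 95% intervals were wide. The one for Il4 ran from 0.790-fold to 3.56-fold, and the one for Il5 from 0.769-fold to 1.99-fold.

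The median log2 fold change of the 8 cytokines was 0.67, against 0.89 over the 750 genes. Of the 89 other panel genes with a median of 20 or less, 23 passed, all higher, and their median was 0.48. Of 29 others that never exceeded 20 in any tumor, 2 passed and the median was 0.39. In the list of 17 genes of other tissues, Hamp (log2 fold change 1.03) and Mbl2 (0.75) passed, both higher with GLA-SE, and the list's median was 0.36. Hamp no longer passed without GLA-SE replicate 3 (edgeR adjusted p 0.0542).

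**Figure D3:**
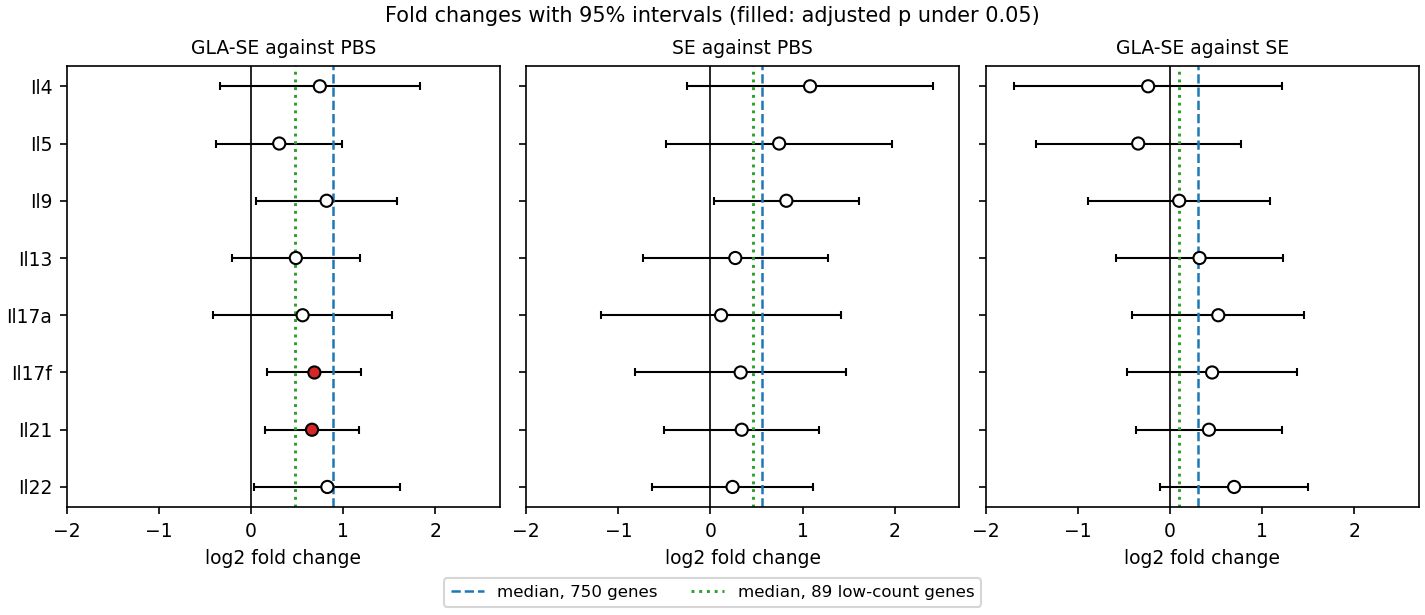
Log2 fold change of each cytokine (x axis) with its 95% interval in the 3 comparisons (panels). Filled points have an edgeR adjusted p under 0.05, the dashed line is the median of all 750 genes and the dotted line the median of the 89 other genes with a median count of 20 or less. Only Il17f and Il21 for GLA-SE against PBS are filled, and both lie below the median of all genes.

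For SE against PBS, which shows the emulsion without the agonist, 0 of 8 cytokines and 0% of the panel passed edgeR's test. At an unadjusted p under 0.05 there were 1 of 8 (Il9) and 147 of 750. DESeq2 with the same reference genes called 57 panel genes higher and 6 lower and gave no adjusted p for the 8 cytokines, which its own filter on low counts set aside, and DESeq2 with its own size factors called 4 higher and 5 lower, none of them among the 8. The log2 fold changes were 1.08 for Il4, 0.82 for Il9, 0.75 for Il5, 0.34 for Il21, 0.33 for Il17f, 0.27 for Il13, 0.24 for Il22 and 0.12 for Il17a, with edgeR adjusted p from 0.228 to 0.885. Il4 had the widest interval, 0.837-fold to 5.35-fold. No cytokine was without overlap after scaling (panel 10.3%).

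Several of the values for SE leaned on replicate 4, which had the smallest size factor of that comparison (0.466). Without it the log2 fold change against PBS was 0.40 for Il4, 0.28 for Il5, 0.69 for Il9, -0.0050 for Il13, -0.20 for Il17a, 0.26 for Il17f, 0.09 for Il21 and 0.29 for Il22. None of these passed. Il22 was not lower without replicate 4, and Il17f moved further without SE replicate 3, to -0.088. Seen on the deposited scale, replicate 4 had the highest SE count of Il4 (26) and the lowest of Il17f (6), Il21 (12) and Il22 (5).

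GLA-SE against SE compares the agonist with its own carrier. Here 0 of 8 cytokines passed edgeR's test, and 2.13% of the panel did. No cytokine reached an unadjusted p under 0.05, and DESeq2 called none of the 8, with 7 of them set aside by its filter when it used the same reference genes. The log2 fold change was 0.70 for Il22, 0.52 for Il17a, 0.46 for Il17f, 0.42 for Il21, 0.32 for Il13, 0.10 for Il9, -0.24 for Il4 and -0.34 for Il5, with edgeR adjusted p from 0.313 to 0.931. No cytokine was without overlap after scaling (panel 15.6%), Il21 included, although its deposited counts were apart. Without SE replicate 4, Il4 turned to 0.35 and Il5 to 0.03, and still 0 of 8 passed. The 95% interval for Il22 ran from 0.930-fold to 2.83-fold. A difference between GLA-SE and SE was thus not detected for any of the 8 genes. Of the 653 genes with a median above 20, 16 passed (2.45%), and 107 of the 750 genes passed as higher without SE replicate 4. The reason for the lack of calls was not tested. The PBS tumors enter both comparisons against PBS, and the GLA-SE and SE tumors each enter 2, so the 3 sets of values are not independent.

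**Figure D4:**
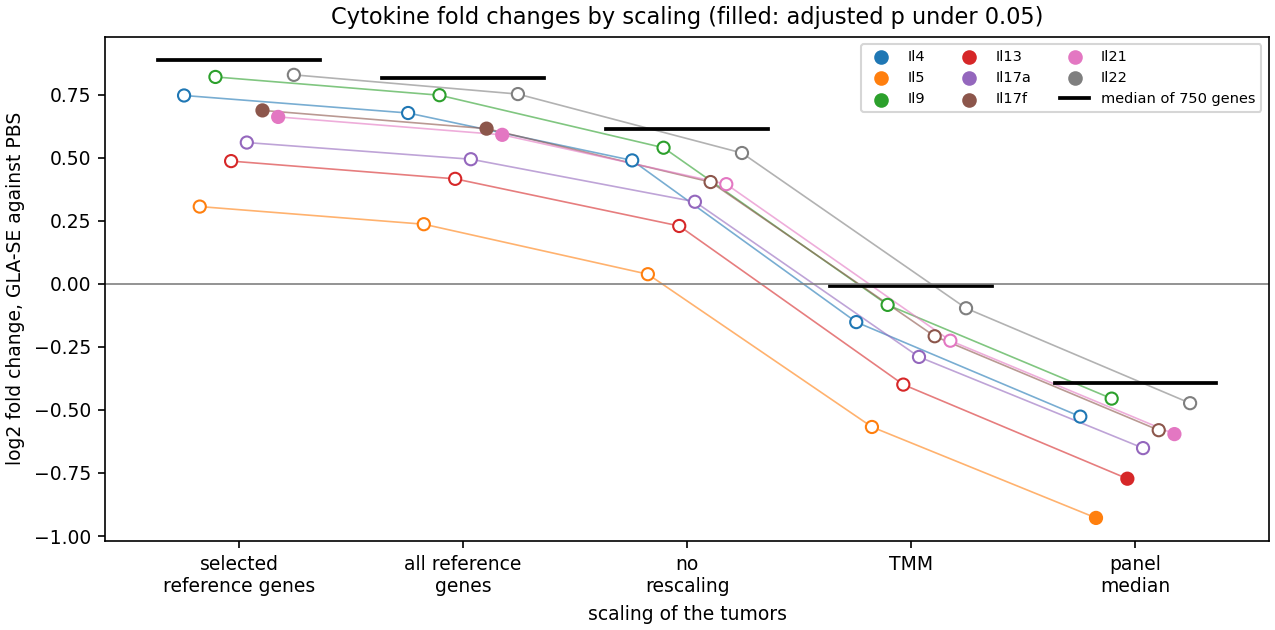
Log2 fold change of each cytokine for GLA-SE against PBS (y axis) under 5 ways of scaling the tumors (x axis). Filled points have an edgeR adjusted p under 0.05, and black bars are the median of all 750 genes. All 8 genes are above 0 under the first 3 scalings and below 0 under TMM and the panel median, and the median of all genes falls with them.

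The cytokines' receptors were mostly above the low-count range. Of 11 receptor genes, 7 exceeded 20 counts in all 12 tumors, and 8 passed as higher with GLA-SE than with PBS (72.7%, median log2 fold change 1.28). Of all 750 genes, 68% passed as higher with a median of 0.89, and the counts of this and the following lists are to be read against that share. Il4ra, the shared chain for Il4 and Il13, had 511, 404, 551 and 599 counts with PBS, 784, 427, 680 and 673 with SE, and 827, 990, 1415 and 910 with GLA-SE. All 4 GLA-SE tumors lay above all others. Csf2rb, a signalling chain that the Il5 receptor uses, had the highest fold change of the list. Its log2 value was 1.91 ± 0.23 (standard error, edgeR adjusted p 0.000306). Il5ra, the other chain of that receptor, had 19 to 30 counts with PBS, 15 to 28 with SE and 30 to 38 with GLA-SE. Il2rg, the common chain used by Il4, Il9 and Il21, was at 1.38 ± 0.22 (standard error, edgeR adjusted p 0.00109).

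Another receptor gene that passed was Il22ra2, a soluble decoy for Il22, at 1.79 ± 0.62 (standard error, edgeR adjusted p 0.0291). Its GLA-SE counts were 93, 33, 12 and 15 against 8 to 15 with PBS, so 2 of the 4 lay above all PBS tumors, and SE replicate 4 held 329. Il22ra1, the signalling chain, had 33 to 64 counts with PBS and 30 to 47 with GLA-SE and did not pass. Il17ra held 988 to 1395 counts with PBS and 1106 to 1362 with GLA-SE and did not pass either, whereas Il17rb, the receptor for Il25, stayed between 9 and 35 in all 12 tumors. Il21r was the most strongly counted of the receptors, at 1545 to 2540 with PBS and 2147 to 3221 with GLA-SE, and passed with a log2 fold change of 0.52 (edgeR adjusted p 0.0273).

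The transcription factors known from the helper lineages were all counted above 20 in every tumor, 10 of 10. Whether helper cells, the B-cell tumor itself or other cells held this RNA was not tested. With GLA-SE 8 of 10 passed as higher than PBS, and their median log2 fold change of 0.88 was that of the panel (0.89). Among these, Irf4, which several helper lineages need, was at 1.70 ± 0.29 (standard error, edgeR adjusted p 0.00143) and Rora, a nuclear receptor active in type 2 innate cells and Th17 cells, at 1.16 ± 0.25 (standard error, edgeR adjusted p 0.00407). Rora had 113, 79, 154 and 116 counts with PBS, 74, 54, 419 and 297 with SE, and 161, 267, 241 and 169 with GLA-SE. All 4 GLA-SE tumors lay above all PBS tumors, and the SE tumors ran from below to above both groups. The GLA-SE tumor with the most Rora was replicate 2, which also held the most Il4 and Il9 of all 12 tumors, while its Il17a and Il17f counts, 11 and 12, were the lowest of its group.

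Gata3, the defining factor of Th2 cells, did not pass for GLA-SE against PBS (log2 fold change 0.51 ± 0.35, standard error, edgeR adjusted p 0.215, and -0.79 with the panel median as the scale). It had 54, 41, 120 and 35 counts with PBS, 59, 75, 74 and 77 with GLA-SE, and 32, 33, 395 and 555 with SE. In the SE tumors with 395 and 555 counts of Gata3, Il4 was at 19 and 26, Il5 at 14 and 12, Il9 at 14 and 8, and Il13 at 20 and 14. These are deposited counts. The tumor with 395 is SE replicate 3, and the one with 555 is SE replicate 4, which scaling raises most. On the scaled counts Il4 had a mean of 26.0 ± 20.7 with SE (SD, n = 4). SE replicates 3 and 4 also had the highest summed deposited counts of the genes of other tissues, at 590 and 522. Their highest single counts in that list were 226 and 223, and their medians over it were 19 and 11. Which cells held the Gata3 RNA was not tested.

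Of 13 genes for cytokines and receptors that induce type 2 or type 17 cells, 11 passed as higher with GLA-SE than with PBS and none as lower (84.6% against 68% of the panel, median log2 fold change 1.12). Il1b and Il6, which promote Th17 cells, had log2 fold changes of 5.18 ± 1.01 (standard error, edgeR adjusted p 0.00255) and 4.07 ± 1.04 (standard error, edgeR adjusted p 0.00829). Without GLA-SE replicate 3 these were 3.63 and 2.29, and both still passed. Il6 had 13 to 16 counts with PBS, 10 to 43 with SE, and 23, 48, 608 and 112 with GLA-SE. Il12b, a chain shared by Il12 and Il23, had 33 to 70 counts with PBS and 61, 57, 813 and 57 with GLA-SE, and its log2 fold change of 2.64 ± 1.00 (standard error, edgeR adjusted p 0.0412) came to 0.47 without GLA-SE replicate 3 (edgeR adjusted p 0.189).

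The same GLA-SE replicate 3 was highest for the other parts of the Il23 axis, which maintains Th17 cells. Il23a was at 43 counts there and at 14 to 18 in the other 3 GLA-SE tumors, and Il23r was at 31 against 10 to 26. Il22, a product of that axis, was at 28 in this tumor and at 16 to 18 in the rest of the group, whereas Il17a was at 12. The type 2 cytokine Il13 was also highest of its group there, likewise at 28. A count of 28 has an exact Poisson interval of 18.6 to 40.5, and this tumor had the highest total count of all 12 (1612415). On the type 2 side, Tnfsf4 (OX40 ligand) passed also for GLA-SE against SE (log2 fold change 2.04, edgeR adjusted p 0.0304), with 90 to 177 counts against 16 to 47. It was the only one of the 13 that did.

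Genes that type 2 or type 17 cytokines are known to induce in their target cells, among other inducers, were grouped in 2 further lists. Of 10 type 2 response genes, 9 passed as higher with GLA-SE than with PBS (90% against 68% of the panel, median log2 fold change 1.45). Ccl22, which attracts Ccr4-bearing cells, was at 2.47 ± 0.44 (standard error, edgeR adjusted p 0.00166), and Ccl11, the eosinophil attractant eotaxin, at 2.04 ± 0.25 (standard error, edgeR adjusted p 0.000324). Arg1, an enzyme of alternatively activated macrophages, was at 1.76 ± 0.58 against PBS (standard error, edgeR adjusted p 0.0256) and at 2.89 ± 0.34 against SE (standard error, edgeR adjusted p 0.00855), where it was the only gene of the list that passed.

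Of 7 type 17 response genes, 6 passed as higher with GLA-SE than with PBS (85.7% against 68% of the panel), with a median log2 fold change of 3.00, or 1.84 without GLA-SE replicate 3. S100a8, a calcium-binding protein of neutrophils, was at 5.02 ± 0.89 (standard error, edgeR adjusted p 0.00162), the neutrophil attractant Cxcl1 at 3.94 ± 0.98 (standard error, edgeR adjusted p 0.00748), and the siderophore-binding Lcn2 at 3.72 ± 0.59 (standard error, edgeR adjusted p 0.00105). Without GLA-SE replicate 3 the values were 3.61, 2.65 and 2.82, and all 3 still passed. Cxcl1 had 16 to 25 counts with PBS and 31, 52, 662 and 230 with GLA-SE. All 7 myeloid markers also passed as higher (median log2 fold change 1.63), led by Cd14 (3.69, and 1.99 without GLA-SE replicate 3), Cxcr2 (3.20 and 1.94) and Csf3r (2.21 and 1.56), with a summed count of 31834 to 41061 in PBS, 29688 to 56107 in SE and 79255 to 110663 in GLA-SE tumors, and their part in these response genes was not tested.

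For the Th1 lineage, 5 of 8 genes passed as higher with GLA-SE than with PBS (62.5% against 68% of the panel, median log2 fold change 1.06). Il12rb2, the inducible chain of the Il12 receptor, was at 2.20 ± 0.54 (standard error, edgeR adjusted p 0.00742), and Stat4, its signal transducer, at 1.34 ± 0.37 (standard error, edgeR adjusted p 0.0121). Ifng, the defining cytokine of Th1 cells, was at 1.33 ± 0.31 (standard error, edgeR adjusted p 0.0061). Its counts were 29, 13, 31 and 34 with PBS, 39, 20, 24 and 11 with SE, and 40, 54, 72 and 52 with GLA-SE. All 4 GLA-SE tumors lay above the threshold and above all other tumors, which held for none of the 8 type 2 and type 17 cytokines. Nor did it hold for Il2, Tnf or Lta, the other cytokines of the Th1 list. Il2 had 22, 14, 18 and 14 counts with PBS, 14, 11, 11 and 8 with SE, and 12, 14, 19 and 25 with GLA-SE.

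Of 10 T cell markers, which label cells that could make the cytokines, 6 passed as higher with GLA-SE than with PBS (60% against 68% of the panel, with a median of 0.81 against 0.89), led by Cd3d (0.94), Cd3g (0.91) and Cd247 (0.82) on the log2 scale. Without GLA-SE replicate 3 the number was 3, and Cd3d and Cd3g no longer passed (edgeR adjusted p 0.0529 and 0.0532). Their summed count was 1123 to 3051 in PBS, 1041 to 2955 in SE and 2799 to 3786 in GLA-SE tumors. Of 7 mast cell, basophil and eosinophil markers, 5 passed as higher (71.4% against 68%), led by Prg2 (2.12, and 1.35 without GLA-SE replicate 3), Cma1 (1.28) and Tpsab1 (0.99), with sums of 201 to 300, 162 to 1663 and 379 to 776 counts in the same order. Their part in the counts of the 8 cytokines was not tested.

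Of 6 surface genes of helper T cell types, only Ccr6, a receptor found on Th17 cells and on B cells, passed as higher with GLA-SE than with PBS (log2 fold change 2.07, edgeR adjusted p 0.000144), with 65 to 92 counts in PBS and 193 to 299 in GLA-SE tumors. The Th2 receptor Crth2 is covered by 2 probes under its older and current symbols, Gpr44 and Ptgdr2, and both held 5 to 17 counts in all 12 tumors. Of the 5 B cell markers, Ms4a1 (-0.46) and Cd79b (-0.42) passed as lower. For SE against PBS no gene of any of these lists passed.

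The direction for most of these lists also depended on the scale. With the panel median as the scale, 2 genes of the type 2 response, 3 of the type 17 response, 2 of the inducers, 2 myeloid markers, 1 receptor and 1 helper surface gene still passed as higher with GLA-SE than with PBS, and no transcription factor, Th1 gene, T cell marker or mast cell, basophil and eosinophil marker did. Under the same scale 4 receptors, 4 transcription factors, 2 inducers, 2 Th1 genes 1 type 17 response gene and 2 helper surface genes passed as lower, as did all 5 B cell markers. With TMM scaling the median log2 fold change stayed above 0 for the type 17 response (1.99), myeloid (0.71), type 2 response (0.55), receptor (0.37), inducer (0.19), Th1 (0.18) and mast cell, basophil and eosinophil (0.07) lists, and was -0.03 for the transcription factors, -0.05 for the T cell markers and -0.29 for the helper surface genes. No gene was named for a pattern like that of a cytokine, because none of the 8 reached the median count of 20 set for that comparison.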

How the data were processed

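RNA from 12 tumors was hybridized to the nCounter panel, which counts barcoded probes directly, so there are no reads, aligner or genome build. The authors deposited 1 table of counts for 770 genes. The methods describe normalization in nSolver, but each deposited value is a whole number, and neither the sums nor the reference genes are equalized across tumors, so they were used as raw counts. Control probes were not used here. Groups came from the sample labels. Of 770 symbols, 754 matched the RefSeq names of GRCm38.p6, the 8 cytokines among them.

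For each comparison geNorm selected reference genes (15 in each comparison with PBS and 12 between GLA-SE and SE), and their geometric mean scaled each tumor. R 4.3.3 and edgeR 4.0.16 tested the 750 other genes, low ones included and with no covariate, at a Benjamini-Hochberg threshold of 0.05. Standard errors and 95% intervals of fold changes were derived from the p-value of the fit. The exact permutation test used log2(normalized count + 1). The fits were tested on simulated data. Figures were drawn with matplotlib 3.10.9.

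The 8 cytokines and all gene lists were chosen with earlier results of these data known. Beside the 8, the text names the 3 genes of each list with the largest log2 fold change among those that passed for GLA-SE against PBS, and Gata3 and Ifng. Some genes that this rule picks are not reported here. Il4ra, Il5ra, Il17ra, Il17rb, Il21r, Il22ra1, Il23a, Il23r, Tnfsf4, Il2, Tnf, Lta, Cd28, Cd79a, Ptgdr2, Gpr44 and C8a are not picked by this rule, and their values were known when they were added. With counts near 20, the precision of each value was limited by the count itself and by 4 tumors per group. Alternatives were other scalings, a filter and a floor on low counts, all 12 tumors in 1 fit, a replicate block, DESeq2 1.42.0 and leaving out each tumor in turn.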

Additional observations from a re-analysis of the deposited data

Results flagged for a closer look

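The highest and lowest tumor of each group of 4 were compared with the rest of the group for each of the 8 cytokines, 24 groups in all, by Dixon's test at its 95% critical value, which chance passes in about 1 of 20 groups. It picked out 4 values: 39 counts of Il4 in GLA-SE replicate 2 (the others 12 to 13), 20 of Il13 in SE replicate 3 (14 to 15), 19 of Il17a in GLA-SE replicate 1 (11 to 12) and 28 of Il22 in GLA-SE replicate 3 (16 to 18). In Il13, Il17a and Il22 the exact Poisson intervals of the value and of its neighbours overlapped. No cause was tested.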

How the results depend on the processing

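For GLA-SE against PBS, the number of cytokines that passed was 2 as reported and also with all reference genes, 1 with the replicate block (Il17f), and 0 with TMM scaling, without rescaling, with counts under 20 set to 20, with all 12 tumors in 1 fit, and with DESeq2 under either set of size factors. With panel median scaling 3 passed, all of them lower with GLA-SE. Leaving out 1 tumor at a time gave 0 (without GLA-SE replicate 3, 476 panel genes higher) to 4 (without PBS replicate 1, 493 panel genes higher). Il17f passed in 7 of these 8 fits and Il21 in 4 of 8. The other 2 comparisons had 0 of 8 pass under every alternative, but some alternatives could not call the cytokines. DESeq2 with the selected reference genes gave no adjusted p for 8 of them for SE against PBS and for 7 for GLA-SE against SE. Counts of Il5, Il17a and Il17f never exceeded 20, so setting counts under 20 to 20 made them equal in every tumor. That setting could not test these genes in any comparison, nor Il9 and Il21 for SE against PBS. Scaling moved the whole panel, whose split of higher against lower genes for GLA-SE against PBS went from 510 and 4 to 475 and 8 with all reference genes, 351 and 17 without rescaling, 148 and 168 with TMM, 190 and 152 with DESeq2's own size factors, and 62 and 306 with panel median scaling. It was 253 and 0 with all 12 tumors in 1 fit. The filter of more than 20 counts in 4 of the 8 tumors left 0 cytokines, so it gave no values. The cause of these shifts was not tested.

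The sign of the cytokines' log2 fold changes turned as follows. For GLA-SE against PBS they became, in the order Il4, Il5, Il9, Il13, Il17a, Il17f, Il21 and Il22, -0.53, -0.93, -0.46, -0.77, -0.65, -0.58, -0.60 and -0.47 with panel median scaling, then -0.15, -0.57, -0.084, -0.40, -0.29, -0.21, -0.23 and -0.10 with TMM scaling, and -0.092, -0.51, -0.023, -0.34, -0.23, -0.15, -0.17 and -0.038 with DESeq2's own size factors. For SE against PBS the values of Il13, Il17a, Il17f, Il21 and Il22 became -0.31, -0.47, -0.24, -0.22 and -0.17 with panel median scaling, -0.26, -0.40, -0.19, -0.18 and -0.16 with TMM, -0.25, -0.38, -0.16, -0.17 and -0.11 without rescaling, and -0.23, -0.37, -0.14, -0.14 and -0.10 with DESeq2's own size factors. For GLA-SE against SE, panel median scaling gave -0.79 for Il9, -0.46 for Il13, -0.18 for Il17a, -0.34 for Il17f, -0.38 for Il21 and -0.31 for Il22, TMM gave -0.40 for Il9, -0.10 for Il13 and -0.016 for Il21, and DESeq2's own size factors gave -0.46 for Il9, -0.16 for Il13, -0.054 for Il17f and -0.072 for Il21. There, counts under 20 set to 20 gave -0.15 for Il9, -0.17 for Il17a and for Il17f, -0.078 for Il21 and -0.052 for Il22, all reference genes gave -0.0018 for Il9, and no rescaling gave 0.058 for Il4. The -0.17 of Il17a and Il17f came from the scaling alone, since all their counts were then 20. Leaving out 1 tumor at a time, the values against PBS with SE ran from -0.0050 to 0.54 for Il13, -0.20 to 0.65 for Il17a, -0.088 to 0.60 for Il17f and -0.0023 to 0.53 for Il22. For GLA-SE against SE they ran from -0.85 to 0.35 for Il4, -0.66 to 0.026 for Il5 and -0.18 to 0.31 for Il9. None of the turned values passed except Il5, Il13 and Il21 with panel median scaling for GLA-SE against PBS.

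On the deposited counts, 0 cytokines were without overlap for GLA-SE against PBS and 1 (Il21) for GLA-SE against SE. The number of cytokine values above 20 became 1 in PBS and 7 in SE tumors when counts were scaled to the reference genes of all 12 tumors. With a threshold of 30 it was 0 in PBS, 1 in GLA-SE and 0 in SE tumors, and with the highest count of the 17 genes of other tissues as the threshold it was 0 in each group. The highest count of those genes ran from 36 in a PBS tumor to 226 in an SE tumor, and no cytokine value exceeded 39. That last threshold could thus hardly be passed. Leaving out 1 tumor at a time gave 1 to 2 in PBS, 4 to 6 in GLA-SE and 1 to 2 in SE tumors. Deviations of same-numbered tumors of 2 groups were weakly correlated (-0.248 to 0.184 over the 3 comparisons). With 4 tumors per group these values cannot exclude a pairing, which the labels do not state. At counts near 20, the count itself limits what a difference can show.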
